A study of Mus musculus with 2 samples.

Results

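Of the mouse genes that GENCODE M21 types as snoRNA (small nucleolar RNA), 39 were detected in newborn forebrain, meaning a deposited TPM of 1 or more in both libraries. TPM is the abundance of a transcript relative to the library's other transcripts, after division of its reads by its effective length. M21 lists 1507 snoRNA genes, 1484 of them matched an identifier in the deposited gene tables and 23 did not. The 39 genes were thus 2.63% of the snoRNA genes measured, whereas 33.7% of the 42462 matched genes of all types were detected by the same rule. Since TPM chose the members, their levels are a description with no test.

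Total RNA came from the forebrains of 2 mice of strain B6NCrl on postnatal day 0, pup 1 (replicate 1) and pup 3 (replicate 2), with 1 library from each forebrain. The labels name no treatment or altered gene, give the sex as not collected and give both pups the same donor identifier. Each library was made from 10 ng of RNA, with a stated size range above 200 nt. Both libraries belong to 1 group, so no conditions were compared and no test was made. The difference between the pups is the only measure of error between animals.

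Small nucleolar RNAs guide the chemical modification of other RNAs, mostly ribosomal RNA, in the nucleolus. Box C/D snoRNAs pair with a target and place ribose methylation there through the methyltransferase fibrillarin, and they carry box C (TGATGA in its DNA letters) near one end and box D (CTGA) near the other. Box H/ACA snoRNAs direct the conversion of uridine to pseudouridine by dyskerin, and fold into hairpins joined by a hinge, box H (ANANNA), with an ACA box just before the end. Most vertebrate snoRNAs lie in introns of host genes, are freed from the spliced intron and trimmed by exonucleases, while a few, such as U3, U8 and U13, have genes of their own. Mouse symbols beginning with Snora mark the H/ACA class and those beginning with Snord the C/D class, whereas symbols beginning with Gm give no class.

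Some members with high levels and a pair of the Snord members are shown by sequence, with matches to the class boxes marked where present. Sequences are the RNA strand, 5′ to 3′ in DNA letters, from the GENCODE M21 transcripts (build GRCm38, the same as mm10). In the Snora and Gm sequences, capitals mark the match to ANANNA nearest the middle and an ACA within the last 8 bases. Gm24853, the member with the highest mean TPM, has no ACA there.
Snora30, chr7:127527874-127528003, plus strand: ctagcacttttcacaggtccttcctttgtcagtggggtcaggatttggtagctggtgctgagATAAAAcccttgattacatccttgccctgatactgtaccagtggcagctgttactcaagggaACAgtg
Gm24616, chr16:23111617-23111755, plus strand: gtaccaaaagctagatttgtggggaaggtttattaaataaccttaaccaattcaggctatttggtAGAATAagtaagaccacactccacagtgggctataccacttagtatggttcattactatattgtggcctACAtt
Snora28, chr12:111540941-111541067, plus strand: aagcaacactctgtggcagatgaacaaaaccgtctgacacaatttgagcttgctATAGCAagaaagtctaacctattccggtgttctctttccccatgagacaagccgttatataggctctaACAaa
Gm24853, chr12:81501240-81501360, plus strand: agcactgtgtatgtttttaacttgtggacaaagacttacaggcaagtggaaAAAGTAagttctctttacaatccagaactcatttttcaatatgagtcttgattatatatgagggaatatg
In the C/D sequences, capitals mark the first TGATGA and a CTGA within the last 20 bases. Snord118 is U8 and holds TGATGA in its interior. Snord22 is U22 and holds only the CTGA.
Snord118, chr11:69073427-69073561, plus strand: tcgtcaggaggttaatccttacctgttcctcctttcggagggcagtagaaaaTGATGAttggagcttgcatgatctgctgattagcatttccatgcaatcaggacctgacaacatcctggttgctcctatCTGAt
Snord22, chr19:8725866-8725991, plus strand: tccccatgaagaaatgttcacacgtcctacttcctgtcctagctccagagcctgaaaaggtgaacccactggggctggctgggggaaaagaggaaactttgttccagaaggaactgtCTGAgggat

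The motifs were counted on the RNA strand in every member and in every M21 snoRNA gene of 100 bases or more. ACA exactly 3 bases before the end, the H/ACA position, occurred in 26 of 39 members (66.7%), against 24.5% of the 1049 M21 snoRNA genes of that length. Allowing ACA anywhere in the last 8 bases gave 82.1% of members against 62.7%. Of the 21 members with no class in the symbol, 13 had ACA at the exact position, as did 13 of 15 members named Snora. TGATGA anywhere together with CTGA in the last 20 bases occurred in 2 members (5.13%), both named Snord, against 3.53% of M21 snoRNA genes of 100 bases or more and 68.6% of the 458 under 100 bases. A match is a run of letters, and ANANNA in particular occurs in most sequences of this length, in 84.6% of those M21 genes within 20 bases of the middle.

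Length set which snoRNAs could have a value at all. In the deposited transcript tables the effective length was the length minus 99 bases for all 101568 transcripts of 100 bases or more, and 0 for all 28416 shorter ones, none of which had a TPM above 0. Of the 1484 snoRNA genes measured, 456 (30.7%) were under 100 bases and could not be detected, which leaves 1028 of measurable length. The 39 members were 3.79% of these, against 35.5% of the 40326 genes of all types of measurable length. Members were 104 to 246 bases long with a median of 133, 35 of them had 120 bases or more but under 150, and 37 were shorter than the 200 nt of the stated size range.

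The same subtraction gave 1 read a large weight in TPM. In pup 1, 1 read was worth 8.04 TPM at 104 bases, 1.3 TPM at 130 bases and 0.344 TPM at 216 bases, and in pup 3 it was worth 7.11, 1.15 and 0.304 TPM. A snoRNA of up to 139 bases in pup 1, or 134 bases in pup 3, therefore passed the minimum of 1 TPM with 1 read, and 23 members were short enough for this in both pups. A count of 0 at 130 bases allows up to 3.89 TPM in pup 1 and 3.44 TPM in pup 3 (3 counts, for counting error only). At 216 bases the same limits are 1.03 and 0.911 TPM. A snoRNA of about 130 bases without reads was therefore not shown to lie below the minimum at this depth. Of all lengths, 904 of the 1028 measurable snoRNA genes had no read in either pup.

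**Figure D1:**
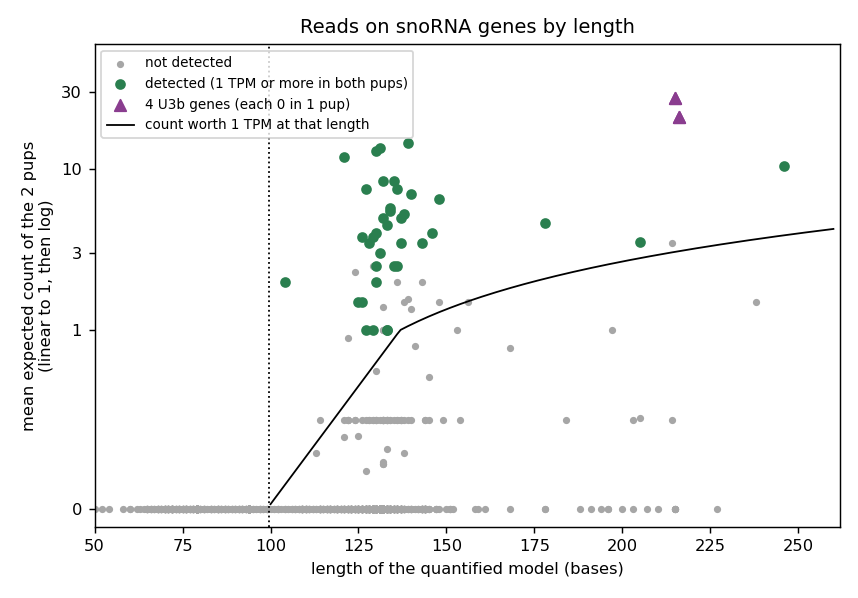
Mean expected count of the 2 pups for each snoRNA gene (vertical axis, linear to 1 and then logarithmic) against the length of its quantified model in bases; green points are detected genes, grey points are not, purple triangles are the U3b genes and the black curve is the count worth 1 TPM. No gene left of the dotted line at 100 bases has a read, and most detected genes lie between 120 and 150 bases; Snora43, quantified on a longer model, is outside the plotted range.

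All snoRNA genes together held few reads. They took 464.77 of 40066386 expected counts in pup 1 (0.00116%) and 502.26 of 40431595 in pup 3 (0.00124%), and the members held 306.94 and 339.22 of these. Per member the median count was 4 in pup 1 and 5 in pup 3. A mean count of 10 or more was reached by 6 members, and 10 or more counts in each pup by 3 (Snora68, Gm24616 and Snora43). In 10 members at least 1 pup had 1 count or fewer, and 4 members (Gm22027, Gm23202, Gm25636 and Gm22743) rested on 1 count in each pup. Fewer cells that make a snoRNA and less of it per cell cannot be told apart in whole tissue.

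By symbol, genes with a class name were detected more often than Gm genes. Of 41 Snora genes, all of measurable length, 15 (36.6%) were detected and 29 had a read in at least 1 pup. Of 97 Snord genes, 86 were under 100 bases, and 3 of the other 11 (27.3%) were detected. Of 1326 Gm genes, 967 were of measurable length and 20 of these (2.07%) were detected. The remaining member was AF357399. All 5 U3 genes (Rnu3) had expected counts above 0 in 1 pup only and failed the rule, though the Rnu3b genes among them are near-identical copies (below). Median mean TPM was 4.965 for the 15 H/ACA members, 8.65 for the 3 C/D members and 3.175 for the 21 without a class, and over all 39 it was 4.845 (4.23 in pup 1 and 4.33 in pup 3).

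**Figure D2:**
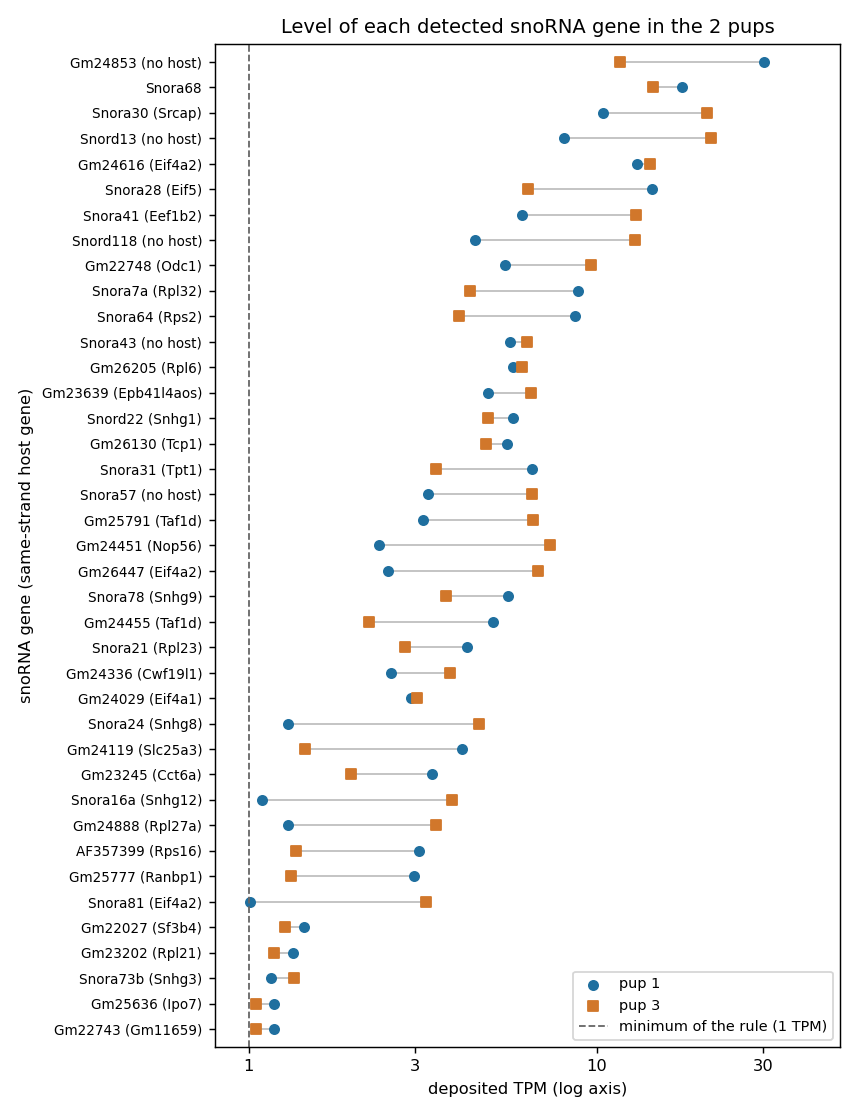
Deposited TPM (log axis) of each of the 39 detected snoRNA genes in pup 1 (blue circles) and pup 3 (orange squares), ordered by mean TPM, with the same-strand host gene in brackets ("no host" for the 5 genes without one, and none given for Snora68) and the minimum of 1 TPM as a dashed line. Values run from 1.01 TPM for Snora81 in pup 1 to 30.19 TPM for Gm24853 in pup 1, and many pairs of points lie further apart than neighbouring genes in the order.

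Among the H/ACA members, Snora68 had the highest level. It read 17.59 TPM in pup 1 and 14.44 in pup 3, from 14 and 13 counts. Both pups were alike for this gene, 0.28 lower in pup 3 on the log2 scale, and its exact 95% Poisson intervals were 7.654 to 23.49 and 6.922 to 22.23 counts. Snora30, in an intron of the chromatin remodeller gene Srcap, read 10.38 and 20.64 TPM from 8 and 18 counts, higher in pup 3. Snora28, in the translation initiation factor gene Eif5, went the other way with 14.36 and 6.35 TPM from 10 and 5 counts. Snora41, in the elongation factor gene Eef1b2, read 6.09 and 12.92 TPM from 5 and 12 counts. The Poisson intervals of the 2 pups overlapped for each of these genes. Within each pup, the deposited TPM intervals of these genes overlapped one another, so the order of the leading H/ACA members is not resolved. In pup 1, Snora68 had 9.893 to 28.09 and Snora41 2.031 to 12.82 TPM. In pup 3, Snora30 had 12.3 to 31.24 and Snora28 2.126 to 13.35 TPM.

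The next H/ACA members lay in ribosomal protein genes or at single loci. Snora7a in Rpl32 read 8.83 and 4.33 TPM (9 and 5 counts), and Snora64 in Rps2 read 8.63 and 4.01 TPM (7.51 and 3.95 counts), both lower in pup 3. Snora31, in the tumour protein gene Tpt1, read 6.49 and 3.44 TPM. Snora57 had no host on its own strand and lay opposite Lbhd1, at 3.28 and 6.53 TPM. Snora78 lay in Snhg9, a noncoding host gene antisense to Rps2, at 5.55 and 3.68 TPM. Snora21 in Rpl23 read 4.23 and 2.81 TPM. The lowest H/ACA member was Snora73b in the noncoding host Snhg3, one of the U17 snoRNAs that act in early ribosomal RNA cleavage, at 1.16 and 1.35 TPM. It lies whole within an exon of Gm17300 on the other strand, which read 3.14 and 1.82 TPM, and its near copy Snora73a (96.6% identical) was not detected. No source used here gives the strandedness, so reads of such opposite pairs cannot be told apart.

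Snora43 stands apart, since its value does not measure the annotated snoRNA. M21 places a 139-base snoRNA at chr2:26637847-26637985, whereas the deposited tables quantify that identifier on 2 transcripts of 741 and 2366 bases. It had 127.58 and 127.38 counts, far more than any other member, and 5.64 and 6.3 TPM. The other M21 gene with the symbol Snora43, of 127 bases, had 0.42 counts in pup 1 and 0 in pup 3. Without this member 38 genes remained and the median level was 4.738 TPM.

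All 3 C/D members are known for roles other than guiding ribose methylation. Snord118 (U8), needed for maturation of the large-subunit ribosomal RNAs, read 4.47 TPM in pup 1 and 12.83 in pup 3, from 4 and 13 counts. Snord13 (U13), which pairs with the small-subunit ribosomal RNA to direct its acetylation, read 8.04 and 21.32 TPM from 1 and 3 counts. The fourth highest mean level of all members thus rested on 4 reads, because Snord13 is 104 bases long and has an effective length of 5 bases. Snord22 (U22), in the noncoding host Snhg1, read 5.74 and 4.88 TPM from 3.85 and 3.71 counts. Neither Snord118 nor Snord13 lay within another gene on either strand.

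Among members without a class, Gm24853 had the highest mean of all members, 20.93 ± 13.1 TPM (SD, n = 2), with 30.19 TPM in pup 1 and 11.66 in pup 3. It had no host on its own strand. It lies whole within an exon of Synj2bp on the opposite strand, in 2 quantified transcripts. On that strand the gene Gm20498 also contains it. Synj2bp-204 read 9.9 and 6.12 TPM, and Synj2bp-203 read 0.27 and 0.37 TPM, and the part of their reads in the value of Gm24853 was not tested. Its counts, 16.52 and 7.22, were not whole. Another snoRNA gene, Gm25909, is 97.5% identical to Gm24853, and reads shared with that near copy were not tested either. Gm24616, in the helicase gene Eif4a2, had the most counts of any member measured on its own model, 13 and 16, and read 13.07 and 14.22 TPM. Gm22748 lay in Odc1, the first enzyme of polyamine synthesis, and read 5.43 and 9.61 TPM. Gm26205 in Rpl6 read 5.74 and 6.09 TPM, and Gm26130 in the chaperonin gene Tcp1 read 5.51 and 4.79 TPM. Gm24119 in Slc25a3, the mitochondrial phosphate carrier gene, is the longest member at 246 bases, and its 15 and 6 counts gave 4.1 and 1.45 TPM. The lowest in this class were Gm25636 in Ipo7 and Gm22743, each at 1.18 and 1.05 TPM.

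The members nearest the minimum show how the rule divides similar counts. Just inside it lay Snora81 (1.01 and 3.24 TPM from 1.99 and 7.21 counts), Snora16a (1.09 and 3.84 TPM from 1 and 4 counts), Gm25636 and Gm22743. Just outside lay Gm22353 (3.26 and 0.96 TPM from 3 and 1 counts), Snord15a (0.82 and 1.45 TPM from 1 and 2 counts), Gm25776 (2.74 and 0.81 TPM) and Gm24044 (0.71 and 1.25 TPM). Some genes outside the rule had more reads than Gm25636, with 1 count in each pup. In all, 79 snoRNA genes reached 1 TPM in pup 1 and 60 in pup 3, and 61 did so in 1 pup only.

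The U3b genes had a higher mean count than every member except Snora43 but failed the rule as single genes. U3 is an abundant C/D snoRNA of the complex that cleaves the small-subunit ribosomal RNA from its precursor. The 4 Rnu3b genes on chromosome 11 are identical over the 215 bases compared, and the quantified models of Rnu3b1 and Rnu3b3 have 1 base more at the end, which is the capital below.
Rnu3b1, chr11:87443237-87443452, plus strand: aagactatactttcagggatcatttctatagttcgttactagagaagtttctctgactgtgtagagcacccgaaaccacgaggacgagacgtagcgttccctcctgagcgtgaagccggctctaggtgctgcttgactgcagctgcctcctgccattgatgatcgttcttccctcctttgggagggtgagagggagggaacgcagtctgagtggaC
Rnu3b1 and Rnu3b3 each had 42 counts and 14.43 TPM in pup 1 and 0 in pup 3, while Rnu3b2 and Rnu3b4 each had 0 in pup 1 and 55.5 counts and 17 TPM in pup 3. So each of the 4 genes failed the rule in 1 pup. Reads within the identical bases cannot be assigned to 1 copy, so these counts do not show which copy was expressed in which pup. In the pup with 0 counts, the deposited posterior mean TPM of each gene was 4.71 to 7.12. Their sum was 28.86 TPM in pup 1 and 34 TPM in pup 3, from 84 and 111 counts, and its mean of 31.43 TPM was above the mean of every member. The deposited posterior mean TPM, summed over the 4, was 29.65 and 34.39. Rnu3a, which differs from Rnu3b1 by an edit distance of 32 bases, had 0 and 7 counts and 0 and 2.16 TPM. With genes of 95% identity or more summed before the minimum, 42 of 969 groups were detected, 3 more than by single genes.

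Shared reads also touched members. The counts of 9 members were not whole (beyond a tolerance of 0.01 counts). All 7 members that lie whole within an exon of a quantified transcript were among them, as against 0 of 3 that lie partly in one and 2 of the other 29. For example, Snora64 had 7.51 and 3.95 counts and lies in an exon of a retained-intron transcript of Rps2 at 3.6 and 4.04 TPM. Gm26130 had 5.35 and 5.26 counts and lies in one of Tcp1 at 4.27 and 3.07 TPM. Separately, 10 members have another measurable snoRNA gene of 95% identity or more, and reads shared with such near copies were not tested. Of those 10, only Gm24853, Snora81 and Snora73b had counts that were not whole, and each also lies whole within such an exon. In M21, 14 members lay whole and 3 partly within a same-strand exon of a host transcript, and 17 lay in introns only. Reads of a snoRNA and of unspliced or intron-retaining host RNA across it cannot be told apart in these tables.

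Most members had a host. A gene of another type contained 34 of 39 members on the same strand, and these hosts were 31 distinct genes. Ribosomal protein genes held 8 members (among the hosts were Rpl32, Rps2, Rpl6, Rpl23, Rpl27a, Rps16 and Rpl21), and genes of translation factors held 6 (Eif4a2, Eif5, Eef1b2 and Eif4a1). Other protein-coding genes held 12, among them Nop56, itself a core protein of box C/D particles, Sf3b4, a splicing factor, and Ranbp1, a nuclear transport factor. The remaining 8 lay in genes that M21 does not type as protein-coding: Snhg1, Snhg3, Snhg8, Snhg9, Snhg12, Epb41l4aos, the antisense gene Gm11659 and Cct6a, a chaperonin gene that M21 types as processed transcript. Median mean TPM was 4.718 for members in ribosomal protein hosts, 7.068 in translation factor hosts, 4.235 in other protein-coding hosts, 2.803 in the hosts not typed protein-coding and 8.65 for the 5 without a host, and the ranges of these groups overlapped. The 5 without a host include Snora43.

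Detection went with the level of the host. Among measurable snoRNA genes, 34 of 275 with a same-strand host were detected (12.4%), against 5 of 753 without one (0.664%). By mean TPM of the host, the detected share was 1 of 38 below 1 TPM (2.63%), 1 of 50 from 1 to 10 (2%), 9 of 114 from 10 to 100 (7.89%) and 21 of 49 at 100 or more (42.9%). Among hosts of 100 TPM or more, 7 of 14 snoRNAs in ribosomal protein genes were detected (50%) and 14 of 35 in other genes (40%). Over ribosomal protein hosts of any level the share was 8 of 19 (42.1%). Median host level was 254 TPM for detected members with a measured host and 15.88 TPM for undetected snoRNAs. Several snoRNAs share 1 host, and with each host counted once the medians were 254 TPM (29 hosts) and 14.82 TPM (195 hosts). Symbol and host moved together, since 746 of the 753 genes without a host were Gm genes, of which 1 was detected (0.134%). Of Gm genes with a host, 19 of 221 (8.6%) were detected. Snora and Snord genes went the other way, with 4 of 6 detected without a host (66.7%) and 14 of 46 with one (30.4%). Snora43, whose value does not measure the annotated snoRNA, is among these 4 and among the 5 above. The pooled contrast by presence of a host thus held for Gm genes only. Among snoRNAs in hosts of 100 TPM or more, 12 of 30 Gm genes (40%) and 8 of 18 Snora or Snord genes (44.4%) were detected, so the shares by symbol lay close together there.

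**Figure D3:**
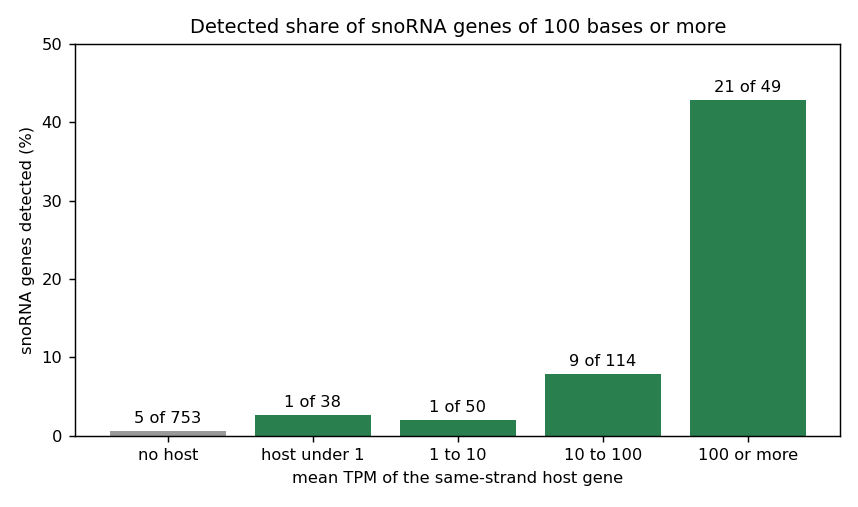
Share in percent of measurable snoRNA genes that were detected, by mean TPM of the same-strand host gene (bars from 0, with detected and total genes above each). The share is 42.9% for hosts of 100 TPM or more and under 8% in every other bin.

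Once detected, a snoRNA had a level only loosely tied to its host's. Hosts read far higher TPM than their snoRNAs. The median log2 ratio of snoRNA to host, each as TPM + 0.1, was -5.92 in pup 1 and -5.3 in pup 3. Hosts thus read 60.4-fold and 39.5-fold higher. Of the 39 members, 37 are shorter than the stated size range of above 200 nt, and the part of that limit in the ratio was not tested. The ratio is therefore one of library TPM and not of amounts in the tissue. The host was higher in both pups for 30 of 32 members with a measured host. Snora30 was one exception, with Srcap at 35.72 and 18.59 TPM beside 10.38 and 20.64 TPM. Gm22743 was the other, with Gm11659 at 0.44 and 0 TPM, and it lies opposite Mapt and has 3 other M21 genes of 95% identity or more. At the other end, Gm23202 in Rpl21 was 238-fold and 307-fold below its host, on 1 count in each pup, and AF357399 in Rps16 was 153-fold and 419-fold below. Across the 32 members, Pearson's r of log2 TPM between snoRNA and host was 0.305 and Spearman's rho 0.277, given as a description since both values come from the same libraries and the members were chosen by level.

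**Figure D4:**
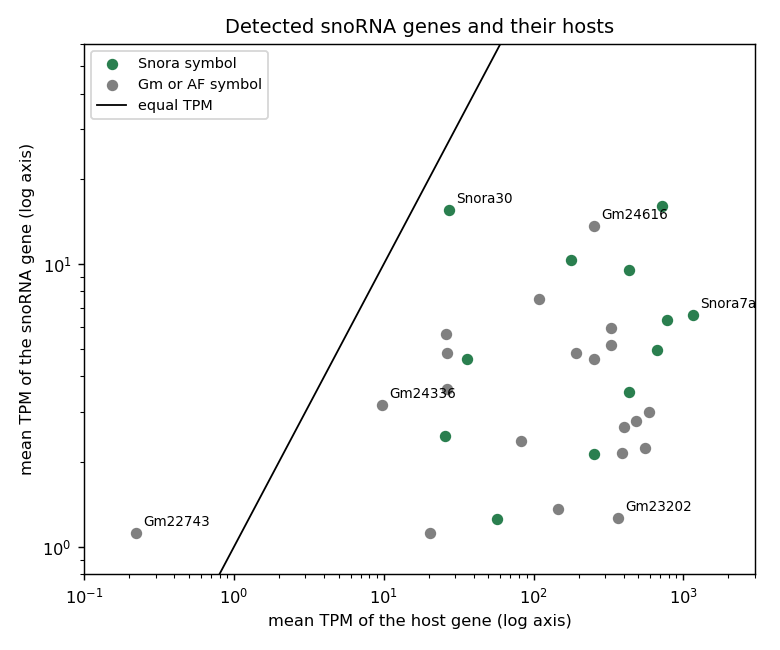
Mean TPM of 32 detected snoRNA genes against mean TPM of their measured host (both log axes), with Snora symbols in green, Gm or AF symbols in grey and a line of equal TPM. All points except Gm22743 lie to the right of the line, and hosts span 0.22 to 1155 TPM.

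A pair of hosts held more than 1 member. Eif4a2, at 256.88 and 251.11 TPM, contains 4 measurable snoRNAs, of which 3 were detected. These were Gm24616 (13.07 and 14.22 TPM), Gm26447 (2.51 and 6.75 TPM) and Snora81 (1.01 and 3.24 TPM), while Gm24201 was not. The values of Gm24616 lay above those of the others in both pups. Its deposited intervals were apart from those of Snora81 in both pups (7.104 to 21.12 against up to 5.161 TPM in pup 1, and 8.253 to 22.04 against up to 7.29 TPM in pup 3). They overlapped those of Gm26447, which reached 9.832 and 14.52 TPM. Snora81 and Gm26447 each lie whole within an exon of a retained-intron transcript of Eif4a2, and their counts were not whole. Another snoRNA gene, Gm22519, is 98.9% identical to Snora81. The part of shared reads in these differences was not tested. Taf1d, a subunit gene of an RNA polymerase I transcription factor, read 24.63 and 28.22 TPM and held 2 detected of 6 measurable snoRNAs. Gm25791 read 3.17 and 6.55 TPM and Gm24455 read 5.03 and 2.22 TPM, so their order differed between the pups.

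In the best-known host genes most snoRNAs were too short to have a value. Of 20 listed noncoding hosts, 16 were measured and all 16 were detected, at a median of 50.85 TPM. M21 types 1 of these, Snhg11, as protein-coding. They contain 251 measured snoRNA genes, of which 238 were under 100 bases, and 4 of the other 13 were detected. Snhg14, the imprinted host of the Snord115 and Snord116 repeats, read 31.41 and 20.65 TPM, and all its 208 snoRNA genes were 69 to 94 bases long. Rian, in the imprinted Meg3 region, read 206 and 199.44 TPM, and all its 13 snoRNA genes were 71 to 75 bases. Gas5 read 365.13 and 432.76 TPM with 9 measured snoRNAs, all under 100 bases. Among 29 listed protein-coding hosts, all detected at a median of 254 TPM, 45 of 71 snoRNAs were under 100 bases and 7 of the other 26 were detected. In this list M21 types Cct6a, which holds the detected Gm23245, as processed transcript. Snora73b and Snora73a are counted in both lists, since Snhg3 and the protein-coding Rcc1 each contain them. Hspa8 at 2049.33 and 1884.63 TPM and Rpl13a at 636.7 and 814.92 TPM held only short snoRNAs, so the tables say nothing about the snoRNAs of these genes.

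Some measurable snoRNAs of abundant hosts were still not detected. Rps3 (401.83 and 479.77 TPM) contains Snord15a and Snord15b and had no detected snoRNA. Eif4g2 (786.68 and 724.48 TPM) contains Gm23262, and Rpsa (459.24 and 545.22 TPM) contains Gm24044, Gm26448 and Snora62, again with none detected.

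The pups were then compared for each member as the ratio of TPM + 0.1, pup 3 over pup 1. The median log2 ratio of the members was 0.06, beside -0.26 over all 14306 detected genes and -0.07 over the 215 detected genes with a mean count of 20 or less. A difference of 2-fold or more was found for 18 members (46.2%), 10 higher in pup 3 and 8 lower. Over all detected genes, 0.363% were 2-fold higher and 3.45% lower in pup 3, 3.82% in all. Among the 215 genes of low count, which include every member except Snora43, the shares were 12.1% and 9.3%, 21.4% in all. That set is not independent of the members. Its limit is a mean count of 20, beside a median mean count of 4 for the members, so depth was not matched. The widest ratios belonged to Snora24 (1.74 on the log2 scale, 1 and 4 counts), Snora16a (1.73, 1 and 4 counts), Gm24451 in Nop56 (1.59, 2 and 7 counts) and Snora81 (1.59). Among members with a mean count of 10 or more, Snora30 had the widest ratio upward (0.98) and Gm24119 downward (-1.44), followed by Gm24853 (-1.36).

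The intervals of the 2 pups overlapped for every member. At a median of 4 and 5 counts such intervals are wide, so overlap does not show that the pups were equal. The deposited intervals of the 2 pups were apart for 0 of 39 members. A 2-fold difference with intervals apart was found for 0 members and for 3.25% of all detected genes. Only 215 of those 14306 genes had a mean count of 20 or less, so the shares are not alike in depth. The exact 95% Poisson intervals of the rounded counts overlapped in 39 of 39 members. Across the 39 members, log2 TPM of the 2 pups had a Pearson's r of 0.651 and a Spearman's rho of 0.616, which includes the shared lengths of the members. The Poisson intervals cover counting error only, since reads without molecular identifiers are not independent molecules.

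**Figure D5:**
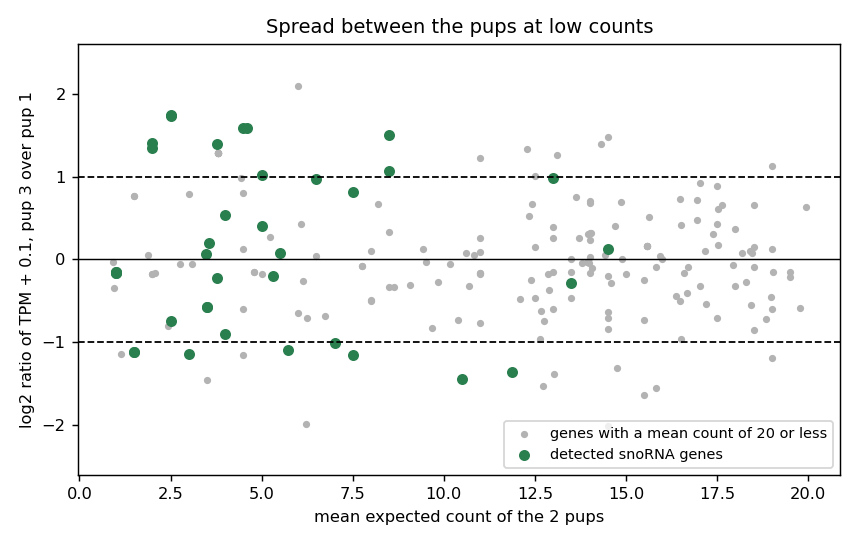
Log2 ratio of TPM + 0.1, pup 3 over pup 1, against the mean expected count for detected snoRNA genes (green) and all detected genes with a mean count of 20 or less (grey); dashed lines mark 2-fold. Snora43, with a mean count of 127.5, is outside the range, and the ratios of the other members lie on both sides of 0.

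Genes for the core proteins of snoRNA particles were detected as RNA, and protein was not measured. All 4 box C/D core genes were detected, at a median of 149.4 TPM. Fbl, the methyltransferase fibrillarin, read 77.72 and 71.39 TPM, Nop56 207.19 and 178.2 TPM, Nop58 124.01 and 88.12 TPM and Snu13 250.91 and 288.81 TPM. All 4 box H/ACA core genes were detected too, at a median of 78.61 TPM. Dkc1, the pseudouridine synthase dyskerin, read 49.54 and 34.51 TPM, Gar1 32.41 and 25.76 TPM, Nhp2 101.84 and 128.57 TPM and Nop10 138.62 and 178.93 TPM. The groups overlapped, with Fbl below Nhp2 and Nop10.

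Genes that assemble, release or trim snoRNAs had lower medians than both core lists, with levels that overlapped those of the core genes. All 12 assembly factors were detected at a median of 27.44 TPM, from Naf1, which binds dyskerin early in H/ACA assembly, at 2.03 and 1.7 TPM to the helicase Ruvbl2 at 79.57 and 79.39 TPM. All 6 genes of release and trimming were detected at a median of 30.98 TPM, among them Dbr1, the enzyme that opens intron lariats, at 27.34 and 21.48 TPM. No gene of these 4 lists differed 2-fold between pups, beside 3.82% of all detected genes. Among the host lists Snhg11 alone did so, at 150.15 TPM in pup 1 and 32.08 in pup 3, and neither of its 2 snoRNA genes (Gm25187 and Gm25129) was detected.

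The tissue label was checked by marker genes. All 8 forebrain markers were detected, summing to 535.16 and 624.93 TPM, against 1 of 8 midbrain and hindbrain markers, summing to 18.75 and 7.75 TPM. The 3 blood markers were detected and summed to 1590.45 TPM in pup 1 and 2273.22 in pup 3, and the part of blood RNA in the snoRNA and host levels was not tested.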

How the data were processed

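Total RNA-seq of 2 forebrain libraries in 1 group was analysed. The deposited notes name assembly mm10 and GENCODE M4. Aligner, quantifier and strandedness: not given in the sources used here. Gene and transcript tables, as deposited, hold expected counts, which need not be whole, and TPM with a posterior mean TPM, per the file headers. The deposited signal bounds of a credibility interval have no stated level. Total counts were 40066386 and 40431595. snoRNA genes, exons and sequences came from GENCODE M21 (GRCm38), with identifiers matched without version; 38 of 39 members matched RefSeq genes of GRCm38.p6.

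Members reached 1 TPM in each pup. A host was the gene of another type that contains the snoRNA on the same strand, the one with the higher mean TPM where several do. Ratios used TPM + 0.1. TMM (edgeR 4.0.16) and DESeq2 1.42.0 size factors, from expected counts rounded to whole numbers in R 4.3.3, were alternatives, beside other minimums, pseudocounts, folds, posterior mean TPM and each pup alone. Other steps used Python 3.11.15, pandas 2.3.3, scipy 1.17.1 and edlib 1.3.9.post1; the host search and the 2-fold calls were tested on simulated data. No p-value was computed.

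The members and lists were chosen with earlier results of these data known. Named genes were the 12 members with the highest mean TPM and the 12 with the highest mean count, the 4 just inside and the 4 just outside the minimum, the widest ratios between pups, hosts of 2 or more members, the highest and lowest of each class and the list genes described; other names were chosen after their values were seen. A host name and some sequences are not reported here.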

Additional observations from a re-analysis of the deposited data

How the results depend on the processing

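The number of detected snoRNA genes was 39, and 43 at a minimum of 0.5 TPM, 47 with no minimum and 42 with near-identical genes summed. It was 10 at 5 TPM, 3 with 10 or more counts in both pups and 24 with 3 or more counts in both. With posterior mean TPM it was 805, of which 704 had no read in either pup. Either pup alone gave 60 to 79 detected genes, 49 to 62 of them with a host instead of 34. The median level of 4.845 TPM became 5.785 with posterior means, 4.615 at a minimum of 0.5 TPM, 12 at 5 TPM, 13.64 with 10 or more counts, 5.79 with 3 or more, 4.738 without Snora43 and 2.37 to 3.145 with either pup alone. The median log2 ratio of snoRNA to host, -5.54, stayed below 0 in every alternative run, at -10.08 with counts not divided by length, -4.21 at 5 TPM, -4.84 with 10 or more counts and -4.69 to -4.68 with either pup alone. Every alternative used the same libraries, with their stated size range above 200 nt.

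The median log2 ratio between pups, 0.06, turned to -0.08 with posterior means; the cause was not tested. It was 0.05 with a pseudocount of 1, 0.13 with TMM, 0.12 with DESeq2 size factors, 0.14 at 5 TPM, 0.12 with 10 or more counts and 0.07 with 3 or more. The 18 members past 2-fold became 10 with a pseudocount of 1, 7 with posterior means, 0 with intervals apart and 4 at 3-fold, and 15 under TMM or DESeq2 scaling. The alternatives with 3 or more counts, summed copies and no Snora43 were chosen after seeing the data. No paired analysis was possible because both samples belong to 1 group. Low counts and effective lengths of a few bases limit each value.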

Other observations

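Small Cajal body RNAs, which guide the same modifications on spliceosomal RNAs, have a type of their own in M21 and are not among the 39 genes. Of 41 such genes, 37 were of measurable length and 6 were detected (14.6%). Gm26083, in the noncoding host Snhg20 (107.96 and 142.24 TPM), read 21.54 TPM in pup 1 and 22.88 in pup 3 from 50.36 and 60.51 counts, more counts than any detected snoRNA gene except Snora43. Scarna13 read 4.8 and 2.42 TPM from 21 and 12 counts, Gm24289 in Tipin 6.7 and 2.96 TPM, Gm22728 in G3bp2 6.7 and 2.37 TPM, Mir1839 3.89 and 7.79 TPM and Gm23119 1.96 and 3.47 TPM. Scarna2 missed the minimum in pup 3, at 1.15 and 0.9 TPM.

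RefSeq gives other ends for some of the detected snoRNAs. Of 38 matched members, 24 had the same length in both annotations. Snora68, Snord13 and AF357399 are 98, 98 and 94 bases in RefSeq, under the length that could have a TPM here. Snora30 is 107 bases there against 130 in M21, and with the same counts its TPM would be 3.88-fold higher.

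Terc, the telomerase RNA, which carries an H/ACA end, had 1 and 3 counts and 0.12 and 0.33 TPM. Rmrp, the RNA of a ribosomal RNA processing enzyme, had 7 and 21.64 counts and 1.64 and 4.47 TPM.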
